A study of Drosophila melanogaster with 10 samples.

Results

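The genes described here make ecdysone, the steroid moulting hormone of insects, and were chosen by name: nvd, spok, sro, phm, dib, sad and shd, which encode enzymes of the pathway, and mld and ouib, which encode transcription factors of the gland. All 9 were found among the 17895 genes of the count table. Their RNA was measured by bulk RNA-seq in dissected whole brains of third-instar larvae (Drosophila melanogaster), in 4 libraries of the genotype vostok and in 4 control libraries. Vostok is the name given to CG11504. The labels do not describe the allele or how it was made, and the library names of the control begin with yw. They give no other allele or agent, no sex, and no number of brains per library, and nothing says whether repeats are separate dissections, so a p-value here covers the spread among libraries, part of which could be technical.

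Ecdysone is made in the prothoracic gland, the largest part of the ring gland, a small endocrine organ attached to the larval brain. Dietary sterol is passed through a chain of enzymes known as the Halloween genes, and the product is released into the blood and converted to the active hormone in peripheral tissues. The brain drives the gland through the peptide PTTH, which is made by a few neurons and acts on the receptor encoded by tor. The ring gland also holds the corpora allata, which make juvenile hormone, and the corpora cardiaca, which make adipokinetic hormone. The labels say that whole brains were dissected and do not say whether the ring gland was kept. In bulk samples fewer cells of a type and less RNA per cell cannot be told apart, and this holds for each gland gene below.

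The libraries held 57613848 to 81796126 estimated counts. At this depth 3 counts correspond to 0.0371 to 0.0519 CPM (counts after scaling to a library size shared by all libraries), and reads carry no molecular identifiers, so that this floor covers counting error only. Each of the 9 genes passed the filter on low counts, from 245 counts over the vostok libraries and 505 over the control libraries (shd) up to 101719 and 62119 counts (phm). CG11504 RNA was at 73.6 ± 1.93 CPM in vostok and 60.1 ± 4.99 CPM in control libraries (SD, n = 4 each), with groups that did not overlap. It was thus called higher in vostok (log2 fold change 0.29 ± 0.06, edgeR adjusted p = 0.0143, lost without vostok replicate 3, adjusted p = 0.0531), and with no allele described its level does not check the labels. In contrast y, the body pigment gene that the control strain name refers to, was at 123 ± 19.6 CPM in vostok and 0.846 ± 0.136 CPM in control libraries. The groups thus differed in y RNA as well as in the vostok label. Differences due to vostok and differences due to strain background cannot be told apart in any comparison below. Two-sided tests across all 10749 tested genes were made with edgeR's quasi-likelihood method, with a gene called at an adjusted p below 0.05. Fold changes are vostok over control.

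The comparison asked which RNAs differed between vostok and control brains. Of the 9 genes, 2 rose in vostok (nvd and dib), 1 fell (shd), and the other 6 did not pass the test. Over all tested genes 28.3% were called, 12.1% higher and 16.2% lower, so 3 of 9 is near the background share. Groups did not overlap for 2 of the 9, nvd (higher; 16.4% of all tested genes were separate in this direction) and shd (lower; 16.8%). DESeq2 called 4 of the 9, beside 40.3% of all genes, and without control replicate 2 edgeR called 6 of the 9, beside 48.5% of all genes. The median log2 fold change was 0.12 over the 9 genes and -0.01 over all tested genes. The members did not move one way: 5 had positive and 4 negative log2 fold changes, and the pathway's enzymes were spread from 1.58 (nvd) to -1.01 (shd).

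**Figure D1:**
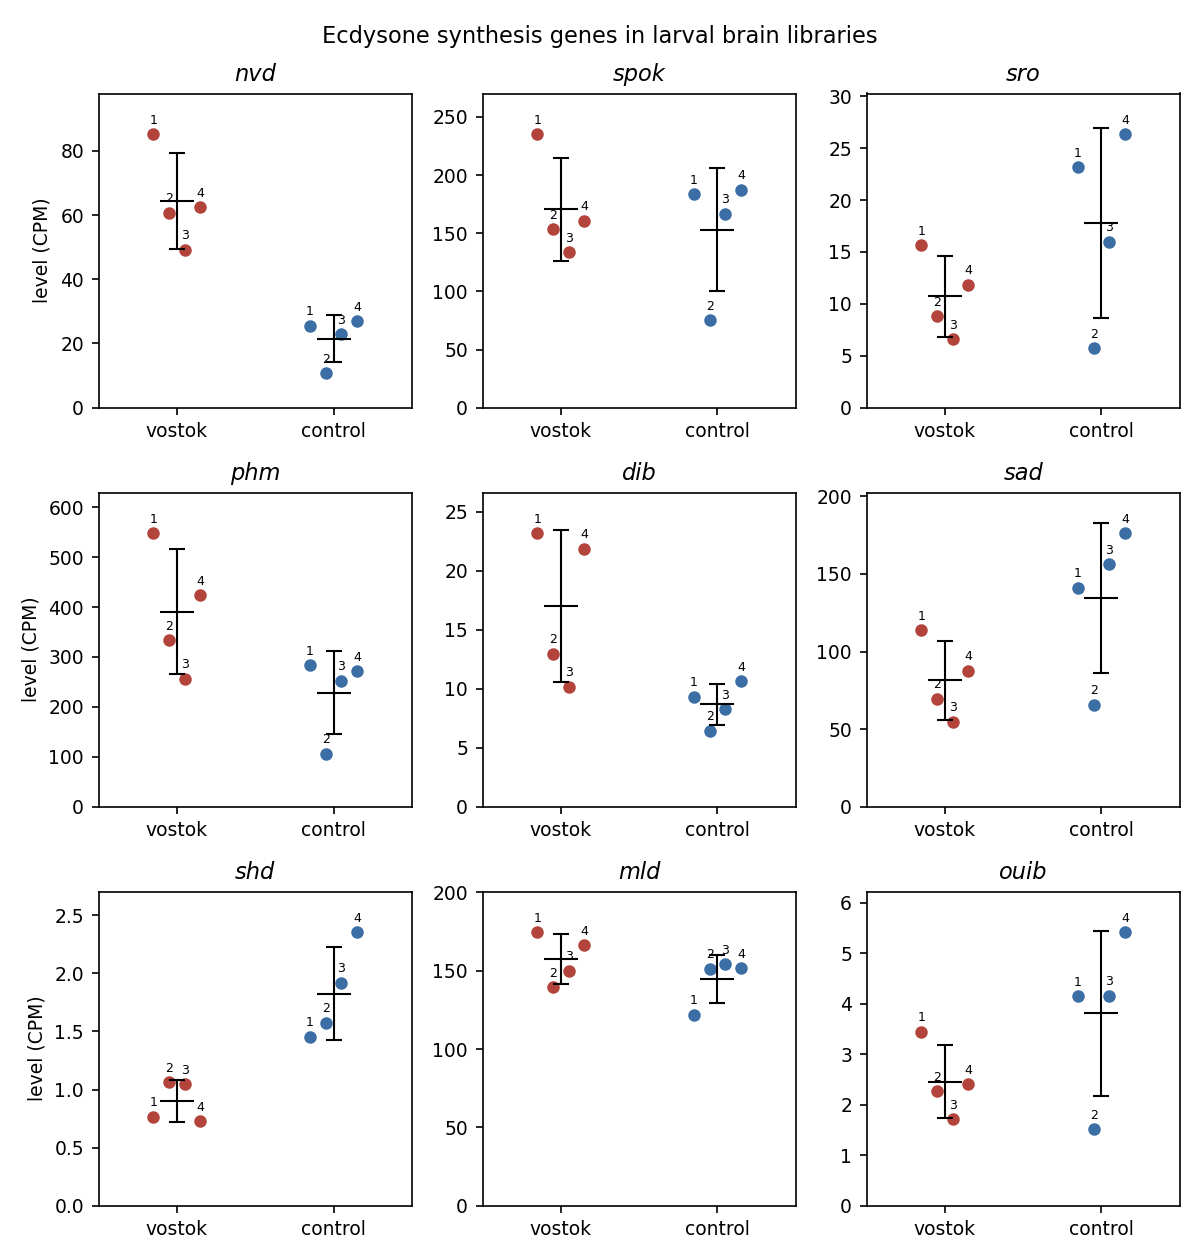
Levels of the 9 genes in CPM in the 4 vostok (red) and 4 control libraries (blue). Each point is 1 library with its replicate number, and bars give the mean and SD; each axis starts at 0 and has its own range. The groups do not overlap for nvd and shd, and control replicate 2 is the lowest control library for each gene but shd and mld.

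The gene nvd (neverland, FBgn0287185; Release 6, 3L:24324866-24401655) encodes the Rieske oxygenase that carries out the first step on cholesterol. It had 85.1, 60.7, 49.2 and 62.4 CPM in vostok replicates 1 to 4, against 25.5, 10.8, 22.8 and 26.9 CPM in control replicates 1 to 4. Every vostok library was above every control library, and the mean was 64.4 ± 15.01 CPM in vostok and 21.5 ± 7.36 CPM in control libraries (SD, n = 4 each), a ratio of 2.99. Its log2 fold change was 1.58 ± 0.30 (SE, edgeR adjusted p = 0.00821). The call held when any 1 library was left out (highest adjusted p 0.0232), and was lost without control replicates 1 and 3 together (log2 fold change 1.78, edgeR adjusted p = 0.0557). Its nearest tested neighbours did not pass: Snap25, 25660 bases before it, had a log2 fold change of 0.21 ± 0.12 and mRpS5, 135580 bases after it, one of -0.09 ± 0.07.

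After nvd come steps whose reactions are not fully known and which need the cytochrome P450 spok (spookier, FBgn0086917; 3R:3322810-3354486) and the short-chain dehydrogenase sro (shroud, FBgn0262112; 3R:29794597-29795805). The gene spok was at 235, 154, 134 and 161 CPM in vostok libraries and at 184, 75.02, 167 and 187 CPM in control libraries. The groups overlapped between 134 and 187 CPM, with a log2 fold change of 0.16 ± 0.30 (edgeR adjusted p = 0.698) whose sign turned without vostok replicate 1 (-0.02) or control replicate 2 (-0.07). Parp1, the nearest tested gene after spok, at 106864 bases, was lower (log2 fold change -0.67 ± 0.07, edgeR adjusted p = 0.000554). Its call held with any 1 library left out. Before spok, Myo81F did not pass (1.04 ± 0.35, adjusted p = 0.057). The paralog spo, the P450 that acts at this step in the embryo, had 3 counts over all vostok and 1 count over all control libraries, so few reads that could belong to either copy were given to spo. Values of sro were 15.6, 8.81, 6.59 and 11.8 CPM in vostok libraries, against 23.2, 5.71, 16 and 26.3 CPM in control libraries. Control replicate 2 lay below every vostok library and the other control libraries lay above them. The log2 fold change of sro, -0.73 ± 0.46, did not pass (edgeR adjusted p = 0.239), and did so without control replicate 2 (-1.03, adjusted p = 0.0243). The sro gene lies 202 kb from CG11504 on the same arm, and its end overlaps that of Rnb, which was at 31.4 CPM in vostok and 32.5 CPM in control libraries and did not pass (edgeR adjusted p = 0.535). Drice, the nearest tested gene after sro, was lower (log2 fold change -0.25 ± 0.07, edgeR adjusted p = 0.0329). Its call was lost in 6 of the 8 fits with 1 library left out. Before sro, kay did not pass (adjusted p = 0.486).

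The last steps in the gland are hydroxylations by the P450s phm (phantom, FBgn0004959, named phtm in RefSeq; X:18685766-18688433), dib (disembodied, FBgn0000449; 3L:4062292-4064551) and sad (shadow, FBgn0003312; 3R:11877235-11879754), in this order. For phm the values were 547, 334, 256 and 424 CPM in vostok libraries and 283, 106, 253 and 272 CPM in control libraries. Only vostok replicate 3 fell within the control range, and the log2 fold change of 0.77 ± 0.34 did not pass edgeR's test (adjusted p = 0.117) but passed DESeq2's (adjusted p = 0.0445). Cyp18a1, the ecdysone-inactivating P450 gene whose span begins 104 bases past that of phm, was at 0.865 ± 0.259 CPM in vostok and 0.721 ± 0.242 CPM in control libraries and did not pass (edgeR adjusted p = 0.512).

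The gene dib was at 23.2, 13.0, 10.2 and 21.9 CPM in vostok libraries, against 9.32, 6.43, 8.29 and 10.6 CPM in control libraries. Vostok replicate 3 lay below control replicate 4, and the other vostok libraries lay above all control libraries. It rose by a log2 fold change of 0.98 ± 0.29 (edgeR adjusted p = 0.0397), a call lost in 5 of the 8 fits with 1 library left out: those without vostok replicates 1, 2 or 4 and those without control replicates 1 or 3 (highest adjusted p 0.0902, vostok replicate 4 left out). The span of dib overlaps that of wit, a receptor gene, which was at 103 CPM in vostok and 81.0 CPM in control libraries and did not pass (edgeR adjusted p = 0.089). Whether reads were counted by strand is not stated, so values of overlapping genes are uncertain.

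The gene sad, which follows dib in the pathway, had the opposite sign. Its values were 114, 69.6, 54.8 and 87.6 CPM in vostok libraries and 141, 65.6, 156 and 176 CPM in control libraries. Control replicate 2 lay within the vostok range and the other 3 control libraries above it. The log2 fold change, -0.73 ± 0.33, did not pass (edgeR adjusted p = 0.123), and did so without control replicate 2 (-0.96, adjusted p = 0.0125). CG6962, whose span overlaps that of sad, had 36.7 CPM in vostok and 35.2 CPM in control libraries and did not pass (edgeR adjusted p = 0.311).

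The enzyme that makes the active hormone, the P450 shd (shade, FBgn0003388; 3L:14614458-14622205), is known from peripheral tissues such as fat body, gut and Malpighian tubules rather than from the gland. It had 0.766, 1.06, 1.05 and 0.726 CPM in vostok libraries, from 46, 86, 71 and 42 counts, against 1.46, 1.58, 1.92 and 2.35 CPM in control libraries, from 101, 127, 120 and 157 counts. Every vostok library was below every control library, and over all tested genes the groups did not overlap for 33.2%. The gene fell by 1.01 on the log2 scale (SE 0.23, edgeR adjusted p = 0.0175), and the call was lost without vostok replicate 1 or 4 (adjusted p = 0.0527 and 0.0521) and held without control replicates 1 and 3 together (adjusted p = 0.0465). CG9628, 590 bases after shd, was also lower (log2 fold change -0.87 ± 0.26, edgeR adjusted p = 0.0429). HGTX, the nearest tested gene before shd, was higher (0.31 ± 0.09, adjusted p = 0.0383). Each of these neighbours lost its call in 6 of the 8 fits with 1 library left out. Marker sums of the tissues that shd is known from overlapped: 9 fat body genes summed to 361 to 682 CPM in vostok and 284 to 648 CPM in control libraries, and 8 gut and Malpighian tubule genes to 18.5 to 23.7 CPM in vostok and 14.6 to 25.7 CPM in control libraries. Of the 5 tested among these 8 genes, however, 3 were higher in vostok (Amy-p, Amy-d and Jon65Aiii, given with the other markers), and DESeq2 called 3 higher and 1 lower. Over all tested genes 28.3% were called by edgeR and 40.3% by DESeq2. None of the 9 fat body genes passed edgeR's test, while 2 were higher by DESeq2 and 2 before adjustment (p below 0.05). Their part in the result was not tested.

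The transcription factor genes ouib (ouija board, FBgn0037618; 3R:8725479-8726730) and mld (molting defective, FBgn0263490; 3R:24585653-24623899) encode zinc finger proteins; ouib is known to be needed for spok, and mld for nvd and spok. Values of ouib were 3.45, 2.27, 1.71 and 2.40 CPM in vostok libraries and 4.15, 1.51, 4.16 and 5.41 CPM in control libraries, where control replicate 2 again lay below the vostok range. Its log2 fold change of -0.63 ± 0.39 did not pass (edgeR adjusted p = 0.227) and did so without control replicate 2 (-0.90, adjusted p = 0.0209). For mld the values were 174, 139, 150 and 166 CPM in vostok libraries and 122, 151, 154 and 152 CPM in control libraries, with a log2 fold change of 0.12 ± 0.10 (edgeR adjusted p = 0.359). The nearest tested gene after mld, atl, was lower (-0.29 ± 0.09, edgeR adjusted p = 0.0393), a call lost in 7 of the 8 fits with 1 library left out. Before mld, CG13625 did not pass (adjusted p = 0.111). Of the 9 genes mld varied least between libraries. In vostok replicates 1 to 4 its log2 deviations from the group mean were 0.15, -0.17, -0.07 and 0.08. These had the signs of the mean deviation of the gland enzymes nvd, spok, sro, phm, dib and sad. In control replicates 1 to 4 they were -0.24, 0.07, 0.10 and 0.07, with signs opposite to the enzymes in replicates 1 and 2.

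**Figure D2:**
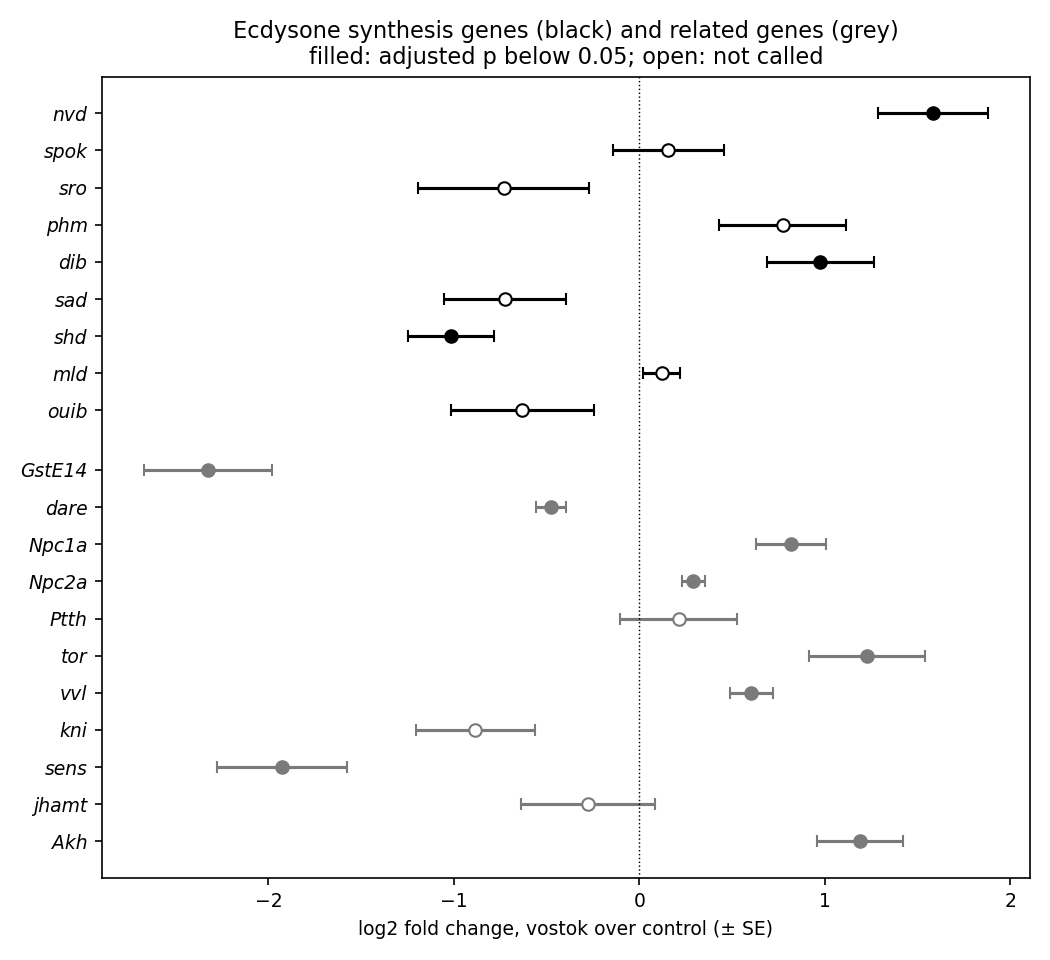
Log2 fold changes, vostok over control, with SE, of the 9 genes (black) and of related genes (grey); filled points were called at an adjusted p below 0.05. The 9 genes span 1.58 (nvd) to -1.01 (shd), and GstE14, at -2.32, is the lowest of those drawn.

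Within each group the gland enzymes went up and down together. Of the 6 enzymes nvd, spok, sro, phm, dib and sad, 6 had their lowest vostok level in vostok replicate 3 and 6 their highest in vostok replicate 1. In control libraries 6 of 6 were lowest in replicate 2, and 5 were highest in replicate 4. On the log2 scale the mean of these 6 lay 0.52 above the vostok mean in vostok replicate 1 and -0.50 from it in vostok replicate 3, and in control libraries it lay -0.92 from the control mean in replicate 2 and 0.44 above it in replicate 4. Control replicate 2 is also the library with the fewest hemocyte marker counts among controls: 10 hemocyte genes summed to 244 to 926 CPM in vostok libraries, and to 2065, 359, 6182 and 1837 CPM in control replicates 1 to 4. Their part in the differences was not tested.

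**Figure D3:**
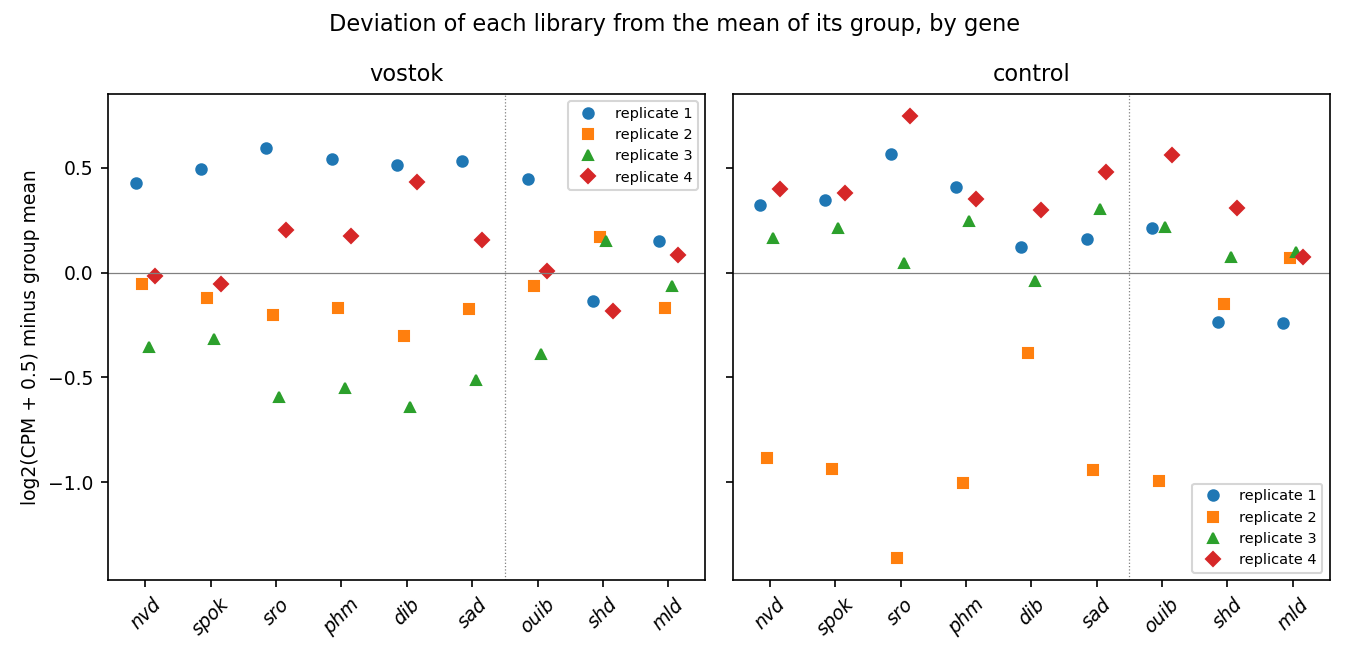
Deviation of each library from the mean of its group on the log2(CPM + 0.5) scale, for the 6 gland enzymes (left of the dotted line) and for ouib, shd and mld. For the 6 enzymes and ouib, replicate 1 is the highest and replicate 3 the lowest vostok library, and replicate 2 is the lowest control library, from -0.38 (dib) to -1.36 (sro). This order is not seen for shd, and mld shares only the highest vostok library, replicate 1.

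The genes whose deviations were most like the mean of these 6 enzymes, after group means were taken out, were looked for among 9087 other genes of at least 1 CPM. CG34120 (Pearson r = 0.98), CG33062 (0.98), CG4408 (0.97), CG32452 (0.96) and GstE14 (0.95) came first over the 8 libraries. Of other genes named here, ouib had r = 0.98, tor 0.80, jhamt 0.83 and kni 0.82, whereas mld had 0.12, shd 0.01, Akh 0.27 and Ptth -0.77. Among 9090 genes other than the 6 enzymes, ouib ranked 3, jhamt 158, kni 213 and tor 293. Values of r near 0.8 were thus shared by many genes. With group means left in, trc (r = 0.89), lncRNA:CR44764, CG32554, CG46280 and CG2034 (each 0.88) came first. These values are descriptions of 8 libraries that share their preparation.

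Ratios between the genes within a library do not depend on its depth or scaling. They are ratios of counts, not divided by gene length, so that only their difference between groups can be read. For every 100 counts of spok, nvd had 36.2, 39.6, 36.8 and 38.8 counts in vostok libraries and 13.9, 14.4, 13.7 and 14.4 counts in control libraries. The 4 values of each group were thus within a narrow range, although the level of nvd itself varied from 49.2 to 85.1 CPM in vostok and from 10.8 to 26.9 CPM in control libraries. For every 100 counts of phm, sad had 20.7, 20.9, 21.4 and 20.7 counts in vostok libraries, against 49.9, 62.0, 61.8 and 64.8 counts in control libraries.

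With log2 ratios of CPM (0.1 CPM added) to phm, 6 of 8 genes had groups that did not overlap, compared by exact permutation tests, two-sided, adjusted over the 8 ratios. The log2 ratio of sad to phm was -2.26 ± 0.02 in vostok and -0.75 ± 0.17 in control libraries (SD, n = 4 each), that of sro -5.19 ± 0.06 in vostok and -3.78 ± 0.37 in control libraries, and that of ouib -7.24 ± 0.12 in vostok and -5.90 ± 0.20 in control libraries. Relative to phm, nvd was higher by 0.82 in vostok, and spok, sro, sad, shd and ouib were lower by values of -0.60, -1.41, -1.502, -1.76 and -1.34 (exact permutation p = 0.0286 for each, the smallest that 4 against 4 allows, adjusted p = 0.0381). The ratio of dib to phm overlapped (-4.54 ± 0.18 in vostok and -4.63 ± 0.42 in control libraries, exact permutation p = 0.657), as did that of mld (exact permutation p = 0.114). Over all tested genes 32.3% had ratios to phm that did not overlap, and the median gene was lower relative to phm by a difference of -0.82 (phm itself had a log2 fold change of 0.77). The differences of sad, sro, ouib and shd lie below this median and those of nvd, spok, dib and mld above it.

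With spok as the denominator, which was chosen after the values were seen because its own level differed least between the groups among the gland enzymes, 5 of 8 ratios did not overlap. Over all tested genes 12.5% did not, with a median difference of -0.22. On this scale nvd (1.42) and phm (0.60) were higher and sro (-0.80), sad (-0.90) and ouib (-0.73) lower in vostok libraries (exact permutation p = 0.0286, adjusted p = 0.0457). The ratio of dib to spok was higher by 0.70 in vostok, with groups that overlapped (exact permutation p = 0.0857). For dib and sad, which act one after the other, the differences thus had opposite signs. For phm and dib, which also follow each other, the ratio overlapped between the groups. Per 100 counts of phm, dib had 3.88 to 5.16 counts in vostok and 3.28 to 6.07 counts in control libraries, the highest in control replicate 2. Without that library the difference in log2 ratio was 0.29 (exact permutation test, adjusted p = 0.131).

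**Figure D4:**
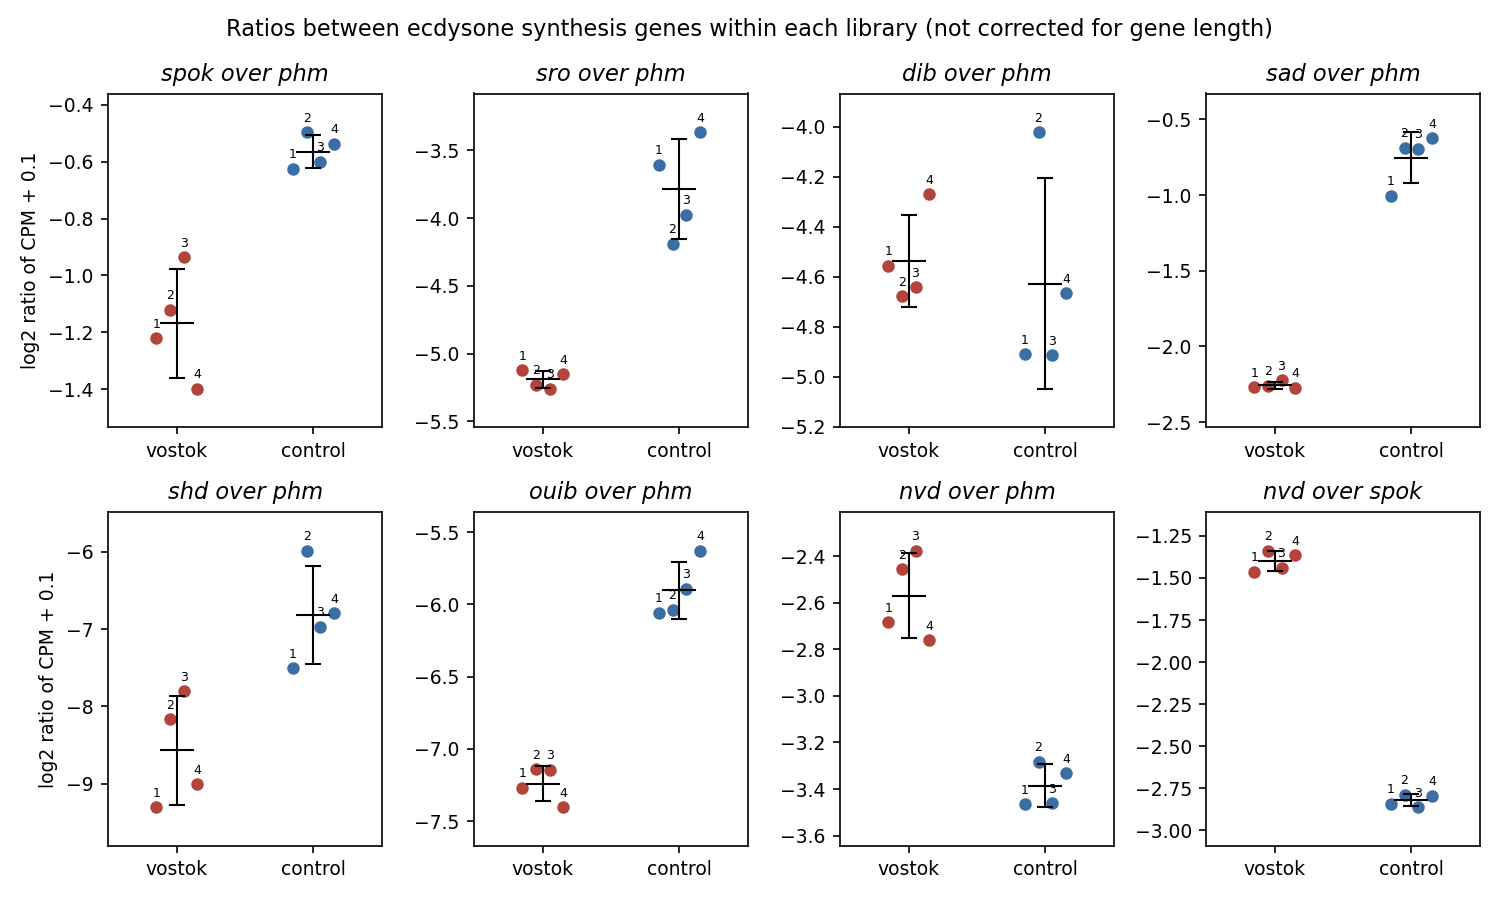
Log2 ratios of CPM + 0.1 within each library, vostok (red) and control (blue), with the mean and SD; points carry replicate numbers, and each axis has its own range. The ratio of nvd to spok is -1.40 ± 0.06 in vostok and -2.82 ± 0.04 in control libraries, and that of dib to phm overlaps between the groups.

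Other genes of sterol supply and ecdysone metabolism were taken as a list of 17 genes found in the table, of which 13 could be tested: 4 rose and 3 fell in vostok, beside 12.1% higher and 16.2% lower over all tested genes, with a median log2 fold change of 0.02. GstE14 (noppera-bo; 2R, FBgn0033817), a glutathione transferase of the prothoracic gland that is also counted among the Halloween genes, fell most: it had 2.53, 1.60, 1.61 and 2.46 CPM in vostok libraries and 12.7, 4.90, 9.76 and 13.6 CPM in control libraries. Its highest vostok library was below its lowest control library, with a log2 fold change of -2.32 ± 0.34 (edgeR adjusted p = 0.00293) that held with any 1 library left out. For every 100 counts of phm it had 0.463 to 0.628 counts in vostok and 3.86 to 5.02 counts in control libraries. The gene dare, which encodes the reductase that passes electrons to mitochondrial P450s such as dib, sad and shd, was lower, at 12.2 ± 0.534 CPM in vostok and 17.0 ± 1.60 CPM in control libraries (edgeR adjusted p = 0.00483). Of the sterol transport genes, 2 rose: Npc1a, needed to move sterol out of lysosomes, was at 381 ± 96.0 CPM in vostok and 216 ± 35.4 CPM in control libraries (edgeR adjusted p = 0.0187), and Npc2a at 139 ± 9.05 CPM in vostok and 113 ± 4.83 CPM in control libraries (adjusted p = 0.0121). The call of Npc1a was lost without control replicates 1 and 3 together (adjusted p = 0.115). Start1, a gene of the sterol transfer family, was at 70.8 ± 12.8 CPM in vostok and 56.3 ± 3.54 CPM in control libraries and did not pass (edgeR adjusted p = 0.0783). With 1 library left out, 2 to 4 of the list were higher and 2 to 4 lower, and without control replicates 1 and 3 together 1 was higher and 2 lower.

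Of 8 tested genes of the PTTH pathway 2 rose and 0 fell in vostok, beside 28.3% called over all genes. The receptor gene tor was at 9.18, 4.86, 4.11 and 6.69 CPM in vostok libraries, against 2.25, 1.95, 2.56 and 3.87 CPM in control libraries. The groups did not overlap (log2 fold change 1.23 ± 0.31, edgeR adjusted p = 0.0252), but 4 of the 8 fits with a library left out lost the call, those without vostok replicates 1 or 4 or control replicates 1 or 3 (highest adjusted p 0.0634), as did that without control replicates 1 and 3 together (adjusted p = 0.136). Per 100 counts of phm, tor had 1.46 to 1.68 counts in vostok and 0.794 to 1.84 counts in control libraries, which overlap. Per 100 counts of spok it had 3.08 to 4.16 counts in vostok and 1.22 to 2.60 counts in control libraries, which do not. Over all tested genes 12.5% had log2 ratios to spok that did not overlap. The hormone gene Ptth was at 5.69 ± 0.946 CPM in vostok and 4.91 ± 2.30 CPM in control libraries and did not pass (edgeR adjusted p = 0.614). The kinase gene Raf, which acts downstream of tor, was at 62.3 ± 1.36 CPM in vostok and 56.3 ± 1.20 CPM in control libraries (adjusted p = 0.0327), a call lost in 7 of the 8 fits. The count of lower genes was also 0 at an unadjusted p below 0.05 and with DESeq2, which called 4 higher, beside 40.3% of all genes in either direction.

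Among 19 transcription factors known to act in the gland, 4 rose and 3 fell, beside 28.3% of all genes called. The POU factor gene vvl, needed for Halloween gene expression, was at 162 ± 9.56 CPM in vostok and 106 ± 17.5 CPM in control libraries (log2 fold change 0.60 ± 0.12, edgeR adjusted p = 0.00855), and Kr-h1, a factor induced by juvenile hormone, at 263 ± 8.68 CPM in vostok and 210.0 ± 19.3 CPM in control libraries (adjusted p = 0.0167). The zinc finger gene sens was at 1.40 ± 0.554 CPM in vostok and 5.33 ± 1.89 CPM in control libraries (adjusted p = 0.00714), and Keap1, an inhibitor of the factor encoded by cnc, at 15.7 ± 0.602 CPM in vostok and 18.1 ± 0.436 CPM in control libraries (adjusted p = 0.0282). The call of Keap1 was lost in 6 of the 8 fits with a library left out. The gene kni, which acts with vvl in the gland, was at 3.41 ± 0.578 CPM in vostok and 6.30 ± 2.50 CPM in control libraries and did not pass (edgeR adjusted p = 0.07), and did so without control replicate 2 (adjusted p = 0.00362). Without that library 7 of the 19 were higher and 4 lower, beside 48.5% of all genes called, and with any 1 other left out 2 were higher and 1 or 2 lower.

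Other signals that reach the gland, a list of 18 tested genes, had 2 higher and 1 lower member, beside 28.3% of all genes called. With DESeq2, which called 40.3% of all genes, 10 were higher and 1 lower, and the same counts were found by edgeR before adjustment of p. Pdfr, a neuropeptide receptor gene, was at 2.82 ± 0.576 CPM in vostok and 1.03 ± 0.509 CPM in control libraries (edgeR adjusted p = 0.0244), and the nitric oxide synthase gene Nos at 18.4 ± 0.759 CPM in vostok and 11.5 ± 3.30 CPM in control libraries (adjusted p = 0.031). Egfr was at 74.4 ± 10.8 CPM in vostok and 125 ± 34.6 CPM in control libraries (adjusted p = 0.034). Without control replicate 2 there were 13 higher members and 1 lower, beside 48.5% of all genes called, and without the other libraries in turn 0 to 2 higher and 0 or 1 lower. Each of these 3 calls was lost in 5 or more of the 8 fits. In the same libraries 8 neuronal and glial genes summed to 2277 to 2628 CPM in vostok and to 1405, 2666, 1644 and 2225 CPM in control replicates 1 to 4, so control replicates 1 and 3, with the most hemocyte RNA, had the least neuronal RNA. Its part in these values was not tested.

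Of the other glands of the ring, Akh was the called hormone gene. Akh, the adipokinetic hormone gene of the corpora cardiaca, was at 17.0, 15.9, 19.7 and 16.6 CPM in vostok libraries, against 5.91, 6.17, 6.35 and 11.9 CPM in control libraries. The groups did not overlap (edgeR log2 fold change 1.19 ± 0.23, adjusted p = 0.00964), and the call held with any 1 library left out and was lost without control replicates 1 and 3 together (0.94, adjusted p = 0.0629). Limostatin (Lst), also of the corpora cardiaca, was at 1.44 ± 0.695 CPM in vostok and 1.61 ± 0.474 CPM in control libraries and did not pass (adjusted p = 0.747). The methyltransferase gene jhamt of the corpora allata was at 4.21 ± 1.77 CPM in vostok and 5.10 ± 1.75 CPM in control libraries and did not pass (adjusted p = 0.563).

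In the list of juvenile hormone genes 1 of 8 tested members rose (Kr-h1) and 4 fell, beside 12.1% higher and 16.2% lower over all tested genes. Hmgs, an enzyme gene of isoprenoid synthesis, was at 47.5 ± 2.66 CPM in vostok and 59.9 ± 5.66 CPM in control libraries (edgeR adjusted p = 0.0181), a call lost without vostok replicate 2 and without control replicates 1 and 3 together (adjusted p = 0.0683). Jheh1, a juvenile hormone epoxide hydrolase gene, was at 2.99 ± 0.665 CPM in vostok and 7.42 ± 3.30 CPM in control libraries (adjusted p = 0.0309), a call lost in 6 of the 8 fits. With 1 library left out the lower count was 1 to 4 (4 without control replicates 2 or 4), and without control replicates 1 and 3 together it was 1.

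Genes that receive and answer ecdysone, a list of 22 tested genes, had 5 higher and 1 lower member. Over all tested genes 12.1% were higher and 16.2% lower, 28.3% in either direction. The receptor genes EcR (204 ± 15.6 CPM in vostok and 197 ± 23.2 CPM in control libraries) and usp (90.3 ± 4.84 CPM in vostok and 84.7 ± 0.992 CPM in control libraries) did not pass (edgeR adjusted p = 0.702 and 0.17), while the ecdysone-inducible ImpE1 was at 287 ± 54.8 CPM in vostok and 178 ± 16.2 CPM in control libraries (adjusted p = 0.0101). The nuclear receptor gene Eip78C, at 29.5 ± 4.32 CPM in vostok and 19.9 ± 2.74 CPM in control libraries, also rose (adjusted p = 0.0191), a call lost in 3 of the 8 fits and without control replicates 1 and 3 together (adjusted p = 0.114). The other higher members were Kr-h1, given above, Eip63E (log2 fold change 0.23 ± 0.06, edgeR adjusted p = 0.0328) and Hr4 (0.97 ± 0.28, adjusted p = 0.0362). The call of Eip63E was lost in 5 of the 8 fits and that of Hr4 in 7. ImpE3, also ecdysone-inducible, was the lower member, at 11.5 ± 5.02 CPM in vostok and 23.9 ± 6.49 CPM in control libraries (edgeR adjusted p = 0.0453). Its call was lost in 6 of the 8 fits and without control replicates 1 and 3 together (adjusted p = 0.278). ImpE2 (log2 fold change -1.26, edgeR adjusted p = 0.0946) and ImpL1 (-0.62, adjusted p = 0.218) had negative signs and did not pass. Counts ran from 2 to 9 higher and from 0 to 3 lower with 1 library left out.

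Markers of tissues that could come with a dissected brain differed by list and by test. Over all tested genes edgeR called 28.3%, 12.1% higher and 16.2% lower, and 48.5% without control replicate 2. DESeq2 called 40.3%. Salivary glue genes, with 7 tested, had 0 called members and summed to 4.63 to 19.6 CPM in vostok and 4.43 to 20.3 CPM in control libraries (0 also at an unadjusted p below 0.05 and with DESeq2). Of 10 hemocyte genes vkg alone was called, at 56.1 ± 35.2 CPM in vostok and 378 ± 371 CPM in control libraries (edgeR adjusted p = 0.0433), a call lost in 7 of the 8 fits. DESeq2 called 8 of the 10 lower, 8 were lower by edgeR before adjustment, and without control replicate 2 there were 9 lower members; the median log2 fold change of the list was -2.49. Of 9 imaginal disc genes bab2 alone rose (142 ± 5.23 CPM in vostok and 122 ± 10.2 CPM in control libraries, adjusted p = 0.0459, lost in 6 of the 8 fits), and the list summed to 1149 to 1283 CPM in vostok and 1147 to 1287 CPM in control libraries. Tracheal genes had 1 higher (trh) and 1 lower (verm) of 6 tested, with sums of 152 to 278 CPM in vostok and 179 to 476 CPM in control libraries. Of 5 tested gut and tubule genes 3 were higher, at low levels: Amy-p at 5.71 ± 0.277 CPM in vostok and 1.18 ± 0.351 CPM in control libraries, its near-identical copy Amy-d at 2.09 ± 0.271 CPM in vostok and 0.357 ± 0.135 CPM in control libraries, and Jon65Aiii at 2.30 ± 2.70 CPM in vostok and 0.192 ± 0.114 CPM in control libraries. Without control replicates 1 and 3 together the calls of trh (adjusted p = 0.056) and Jon65Aiii (adjusted p = 0.14) were lost. The glial barrier gene moody, at 25.8 ± 3.19 CPM in vostok and 37.3 ± 2.65 CPM in control libraries, was the called gene of the neuronal and glial list (adjusted p = 0.00635).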

How the data were processed

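Values are estimated counts, 1 row per gene, as the authors deposited them with no scaling between libraries; salmon made them per the table's own name. Its version, annotation and strand setting are not stated. Per the submitters' processing notes BWA and dm6 were used, with no assay named. The Micro-C data (2 libraries) were not used here. Columns of the table named for CG11504 were taken as the vostok libraries because the title of the series pairs both names. Gene rows (17895 of 24278) were kept, and 5898 transposable element or repeat rows and 485 other rows stayed out. Counts were rounded, filtered with filterByExpr, scaled with TMM factors and tested with edgeR 4.0.16 (robust quasi-likelihood F test, R 4.3.3), genotype being the only term, with Benjamini-Hochberg adjustment over all tested genes. The test was tried on simulated counts. Ratios used scipy 1.17.1. Positions and neighbours come from RefSeq's table of Release 6, which dm6 names; 17855 identifiers matched the table of gene names. No sequence was available for printing. Repeat numbers were not taken to pair the libraries. Alternatives are RLE factors or library totals alone, the count filter dropped or made stricter, DESeq2 1.42.0, limma 3.58.1 voom, a replicate block, libraries left out, other row sets and an adjusted p below 0.01. Genes named beside the 9 are, for each list, up to 4 called with the smallest p or 2 abundant ones, the 5 most alike, tested neighbours and a fixed set (Ptth, tor, jhamt, Akh, GstE14, vvl, kni, y, CG11504). ImpE2, ImpE3 and ImpL1 were named beside ImpE1, and Hr4 beside Eip63E, after their values were seen. Members and lists were chosen with earlier results of these data known. Figures were drawn with matplotlib 3.10.9.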

Additional observations from a re-analysis of the deposited data

Results flagged for a closer look

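In 32 groups of 4 libraries (16 genes, tested by Dixon's ratio), 3 values stood apart from the rest of their group; chance flags about 1 in 20 groups. Control replicate 2 was the lowest for phm (106 CPM), control replicate 1 the lowest for mld (122 CPM), and control replicate 4 the highest for Akh (11.9 CPM). Akh kept its call without control replicate 4, with a highest adjusted p of 0.0325 over the fits with any 1 library left out.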

How the results depend on the processing

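Each of the 9 genes but spok kept its direction under each alternative. The call of nvd was lost only without control replicates 1 and 3 together. The count of genes called over the whole table, 3040, was 1564 with a replicate block, 1593 without control replicates 1 and 3, 1057 at an adjusted p below 0.01, and 1521 to 5333 with 1 library left out, the last without control replicate 2. Of the 9 genes, 2 higher became 1 without a count filter, with limma voom and at an adjusted p below 0.01, 0 without control replicates 1 and 3, and 1 to 2 with 1 library left out; 1 lower became 0 at an adjusted p below 0.01 and 0 to 4 with 1 library left out, the 4 (sro, sad, shd and ouib) without control replicate 2. The cause of these shifts was not tested. The log2 fold change of spok turned to -0.02 without vostok replicate 1 and to -0.07 without control replicate 2 (range with 1 library left out, -0.0747 to 0.279), and the difference in the dib to phm ratio to -0.00307 without control replicate 1 and -0.00471 without control replicate 3 (range with 1 left out, -0.00471 to 0.293). The 6 called ratios to phm became 0 to 0 with 1 library left out, where 4 against 3 cannot go below 0.0571, and each of these 6 kept its direction. The labels do not say whether repeat numbers pair the libraries. Deviations of same-numbered libraries correlated at 0.24, 0.01, -0.01 and -0.08, and vostok replicate 1 was more like control replicate 3 (0.41). Such correlations cannot show how the libraries were prepared. With the replicate block 0 of the 9 genes were lower (shd, adjusted p = 0.0602), nvd and dib were still called (adjusted p = 0.0201 and 0.0342), and 0 ratios passed, since 4 pairs cannot go below 0.125. The members with the fewest counts were shd and ouib.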

Other observations

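Cyp6t3, a P450 gene reported to act in ecdysone synthesis, did not pass the filter on low counts, and is named after its values were seen. It had 4, 24, 287 and 3 counts in vostok replicates 1 to 4, and 0, 1, 0 and 3 counts in control replicates 1 to 4, so vostok replicate 3, the library with the lowest levels of the 6 gland enzymes among vostok libraries, held most of its reads.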
